A study of Sus scrofa with 75 samples.

Results

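The selenoprotein genes GPX1, GPX3, GPX4, SELENOF, SELENOK, SELENOS, SELENOW, TXNRD1 and DIO1, together with CCDC152, the annotated gene at the locus of the selenium carrier SELENOP, are described here across 5 pig organs. They were chosen by gene name and with their short-read expression values in these libraries known, and they make up 10 of the 35798 genes in the gene table. Their short-read levels are therefore given as a description, with no test. Tests are given for long-read counts, which the choice did not use, and for 53 other genes of selenium biology, of which 50 passed the minimum level; those lists were also drawn up with earlier results of these data known, so their tests are not independent evidence of a direction.

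Heart, kidney, liver, lung and spleen were taken from adult male pigs aged 12 months. The labels divide the animals used here into a group coded BS and a group coded DSE, give no meaning for either code, and name no treatment, breed or genotype. Each group had 4 animals, and every animal gave 1 short-read library from each of the 5 organs, so 40 short-read libraries are used. RNA for these libraries was depleted of ribosomal RNA and sequenced in pairs of reads. A further 10 libraries of full-length transcripts were sequenced on the PacBio platform, 1 for each organ and pig group; the labels do not say which or how many animals each of them holds. The 2 pig codes differ by animal, and anything else that differed between these animals, such as housing, diet or handling, cannot be told apart from the code.

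Selenoproteins carry selenium as the amino acid selenocysteine, which is inserted at an in-frame UGA codon that would otherwise stop translation. A hairpin in the 3′ untranslated region (the SECIS element) and a set of dedicated factors direct this insertion. In mammals the liver takes up dietary selenium and secretes it in SELENOP, a plasma protein with several selenocysteines, and other organs take it up through receptors such as LRP2 in the kidney. Several selenoproteins are enzymes of redox metabolism: glutathione peroxidases remove peroxides, thioredoxin reductases keep thioredoxin reduced, and iodothyronine deiodinases convert thyroid hormone.

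The organ labels matched their marker genes. In all 5 organs the summed level of the organ's own markers was higher in each of its 8 libraries than in any library of another organ. The closest distance was in the spleen, where B cell and stromal markers summed to at least 943 TPM (read abundance scaled for transcript length and library total), against at most 80.8 TPM in any other organ. Summed hepatocyte markers reached 204 TPM in 1 BS kidney and heart muscle markers 224 TPM in 1 BS liver, against at least 15466 TPM and 38783 TPM in the organs they mark. Levels come from pieces of whole organs, in which a gene expressed by fewer cells and a gene with less RNA per cell cannot be told apart.

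CCDC152, a gene for a coiled-coil protein, had the highest liver level of the 10 genes and differed between the pig groups in every organ. It lies on chromosome 16 from 27471003 to 27538665 on the plus strand of the pig genome build susScr11 and carries the identifier ENSSSCG00000016867. No gene named SELENOP is present in the assembled annotation that the expression tables use. The RefSeq gene table for pig, on the corresponding assembly Sscrofa11.1, places SELENOP on chromosome 16 from 27537885 to 27547863, and CCDC152 is the only gene of the assembled annotation that overlaps this range. The shared stretch is 781 bp long, lies inside the 3′ untranslated region of CCDC152 (889 bp, within an 8th and last exon from 27537627 to 27538665), and makes up 38.8% of the 2014 nt of its leading transcript. A further 9198 bp of the SELENOP range lie beyond the end of CCDC152 and belong to no gene of the annotation. Whether the libraries kept the strand of the RNA is not given in the sources used here, so reads from CCDC152 and from SELENOP within the shared stretch cannot be told apart, and the CCDC152 values below are those of the annotated gene at this locus. RefSeq ranges of other genes also overlap TXNRD1 (EID3) and DIO1 (HSPB11 and TRNAK-UUU). Whether exons are shared there was not examined.

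In the 4 BS livers CCDC152 stood at 1015, 848, 1096 and 875 TPM, against 2745, 3136, 2321 and 3059 TPM in the 4 DSE livers. Every DSE liver lay above every BS liver, with means of 958 ± 118 TPM in BS and 2815 ± 371 TPM in DSE (SD, n = 4 each). The difference on the log2(TPM + 1) scale, BS minus DSE, was -1.55 ± 0.13 (SE), so that the DSE mean was 2.94 times the BS mean.

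The kidney showed the widest gap. BS kidneys held 297, 222, 296 and 444 TPM of CCDC152, against 1836, 1784, 1920 and 1938 TPM in DSE kidneys. The DSE mean was 5.94 times the BS mean, and the log2 difference of -2.61 ± 0.21 (SE) ranked 22nd by size among the 13820 genes measured in kidney. All 4 DSE kidneys fell within a narrow band, while BS4 stood above the other BS kidneys.

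Spleens of BS pigs held 416, 502, 446 and 213 TPM, against 1067, 1156, 1251 and 1090 TPM in spleens of DSE pigs, a log2 difference of -1.599 ± 0.282 (SE). The lowest of these values was again from animal BS4, which had the highest CCDC152 level of the BS kidneys. Lungs held 237, 204, 206 and 252 TPM in BS pigs, against 506, 441, 718 and 512 TPM in DSE pigs, with a log2 difference of -1.25 ± 0.17 (SE). The heart had the lowest level of the 5 organs in all 8 animals, with 60.1, 49.2, 67.8 and 75.7 TPM in BS and 107, 162, 118 and 142 TPM in DSE, a log2 difference of -1.05 ± 0.19 (SE). The groups overlapped in none of the 3 organs.

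**Figure D1:**
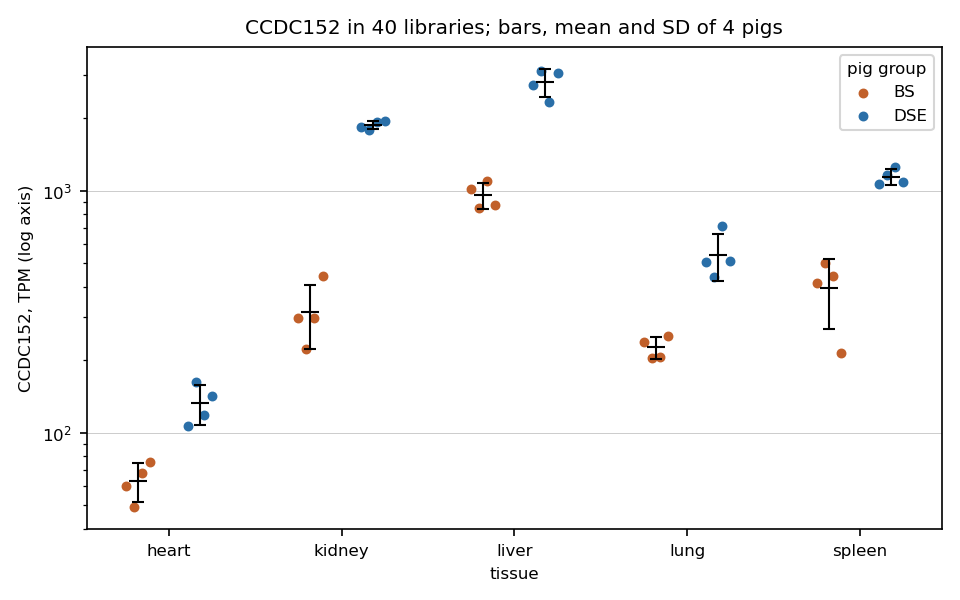
TPM of CCDC152 on a log axis in 5 tissues, with BS pigs left of DSE pigs; points are single libraries and bars the mean and SD of 4 pigs. All DSE points lie above all BS points of the same tissue, and in kidney the means are 315 and 1870 TPM in BS and DSE.

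CCDC152 was one of 361 genes with every DSE library above every BS library in all 5 organs, which is 3.46% of the 10433 genes measured in all of them; since the gene was chosen with these values known, nothing is read from its place among them. By size, its difference ranked within the top 4.84% of genes in lung, the top 2.64% in heart, the top 0.996% in liver, the top 0.927% in spleen and the top 0.159% in kidney.

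Organs of the same animal can also be compared. Liver was the highest organ in all 8 animals. Kidney came next in all 4 DSE pigs, at a ratio to the spleen of 1.64 ± 0.12 (SD, n = 4), whereas the spleen exceeded the kidney in BS1, BS2 and BS3, with ratios of kidney to spleen of 0.713, 0.442 and 0.665, and not in BS4, with 2.08. Relative to the liver of the same animal, the kidney held 0.333 ± 0.117 of its CCDC152 level in BS and 0.675 ± 0.110 in DSE (SD, n = 4 each), and no BS animal reached the lowest DSE animal. The ratio of spleen to liver was 0.413 ± 0.143 in BS and 0.413 ± 0.085 in DSE. Over all 8 libraries an organ, liver and kidney overlapped, kidney and spleen overlapped, and spleen and lung overlapped, but lung and heart did not.

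Summed hepatocyte markers in kidney ranged from 38.3 to 204 TPM in BS kidneys and from 31.3 to 86.6 TPM in DSE kidneys, with medians of 69.2 and 68.8 TPM, and the 5 kidney epithelial markers summed to between 5035 and 8050 TPM in BS and between 3858 and 4449 TPM in DSE. Summed macrophage markers were higher in BS kidneys, at 91.5 to 195 TPM, than in DSE kidneys, at 46.0 to 64.3 TPM. Summed erythroid markers ranged from 61.9 to 778 TPM in BS kidneys and from 42.3 to 474 TPM in DSE kidneys, and in the spleen from 1036 to 27803 TPM in BS and from 676 to 6792 TPM in DSE. In kidney 1 of them, SLC4A1, stayed at 26.2 to 30.2 TPM in BS and 17.2 to 28.0 TPM in DSE. HBB ranged there from 34.1 to 736 TPM and from 24.55 to 435 TPM, so the kidney sums do not measure blood alone. Summed macrophage markers overlapped between the groups in liver, at 674 to 1112 TPM in BS (median 942) and 393 to 704 TPM in DSE (median 516), and in spleen, at 7310 to 12483 TPM in BS and 10577 to 12859 TPM in DSE. In spleen, SPIC, a factor of red pulp macrophages, ranged from 349 to 833 TPM in BS and from 868 to 1032 TPM in DSE without overlap. The spleen markers listed with it had higher medians in BS: MS4A1 (120 and 104 TPM in BS and DSE), CD79A (246 and 164), CD79B (115 and 52.7) and TLX1 (65.1 and 46.5). Among macrophage markers, spleen medians were higher in DSE for CD163, a scavenger receptor (503 TPM in BS and 951 TPM in DSE), CD68 (403 and 508) and C1QA (4821 and 5532). They were higher in BS for C1QB (4933 and 4350) and MARCO (220 and 167). The part of these cell types in the CCDC152 difference was not tested.

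Genes on either side of the locus were far less expressed. GHR, the growth hormone receptor, ends 49554 bp before CCDC152 and averaged 81.9 TPM in BS livers and 118 TPM in DSE livers, its highest organ. FBXO4, an F-box gene farther on the same side, stayed between 2.703 and 8.713 TPM in the means of all organs and pig groups. On the other side, the annotated U6 small nuclear RNA gene was listed at 0 in every group mean, and ZNF131, a zinc finger gene, averaged 5.79 to 25.0 TPM. GHR, FBXO4 and ZNF131 each had a lower mean in BS than in DSE pigs in each organ. The spread of their libraries and the share of all genes with this direction are not given here, so nothing is read from it.

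Among 9750 named genes with at least 10 TPM in some organ, those whose log2(TPM + 1) followed CCDC152 most closely over the 40 libraries were TGDS (Pearson r = 0.93), SEC24A (r = 0.92) and GCLM (r = 0.92). SEC24A codes for a coat protein of vesicles leaving the endoplasmic reticulum and GCLM for a subunit of the enzyme that starts glutathione synthesis. Group means of TGDS were highest in liver, at 26.1 TPM in BS and 46.6 TPM in DSE, and lowest in heart, at 2.63 TPM in BS and 3.72 TPM in DSE. The 40 libraries share 8 animals and 5 organs, and r describes their pattern only.

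GPX3 (ENSSSCG00000036438, chr16:71980463-71989199, minus strand), the glutathione peroxidase secreted into plasma, was by far the most abundant of these transcripts in kidney, which is known as its main source in mammals. BS kidneys held 16063, 18951, 24740 and 15959 TPM, against 17383, 16394, 15779 and 15136 TPM in DSE kidneys. These overlapping ranges gave means of 18928 ± 4115 TPM in BS and 16173 ± 957 TPM in DSE (SD, n = 4 each). The kidney mean over both groups was 43.4 times that of the lung, the next organ, and 176 times that of the spleen, the lowest. Every kidney library lay above every other library, whereas the remaining organs, lung, heart, liver and spleen in that order, overlapped with their neighbours. BS livers held 109, 111, 205 and 39.7 TPM, against 263, 200.4, 410.2 and 154 TPM in DSE livers. Only in the heart did the pig groups separate, with 384, 355, 323 and 241 TPM in BS and 144, 216, 169 and 157 TPM in DSE, a log2 difference of 0.92 ± 0.19 (SE). GPX3 was most like ENPEP (r = 0.96), the brush border peptidase aminopeptidase A, OSR2 (r = 0.95), a transcription factor, and SLC47A2 (r = 0.95), a transporter that exports organic cations into urine.

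GPX1 (ENSSSCG00000060656, chr13:31916246-31917433, minus strand), the cytosolic glutathione peroxidase of most cells, was highest in the spleen. BS spleens held 2000, 1912, 1521 and 1654 TPM, against 1837, 1481, 1634 and 1456 TPM in DSE spleens, and no library of another organ reached these values. Lung followed with means of 1193 ± 95 TPM in BS and 816 ± 86 TPM in DSE (SD, n = 4 each), then liver and kidney, and the heart was lowest, with 198 ± 23 TPM in BS and 122 ± 22 TPM in DSE. Libraries of lung and liver overlapped, as did those of liver and kidney, but kidney and heart were separate. The BS mean was the higher one in all 5 organs, and the pig groups did not overlap in heart, kidney and lung, with log2 differences of 0.71 ± 0.15, 0.58 ± 0.12 and 0.55 ± 0.10 (SE).

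GPX4 (ENSSSCG00000024052, chr2:77320464-77323931, minus strand), which reduces peroxides of membrane lipids and guards against ferroptosis, had a narrower range. The kidney was highest, with 707, 668, 599 and 557 TPM in BS and 410.1, 508, 499 and 486 TPM in DSE, and the liver lowest, with 213, 190.0, 161 and 188 TPM in BS and 139, 148, 108 and 154 TPM in DSE. Its mean was 3.41-fold higher in kidney than in liver. BS libraries lay above DSE libraries without overlap in heart, kidney and liver, and the log2 differences there were 0.41 ± 0.12, 0.41 ± 0.10 and 0.46 ± 0.14 (SE). Heart and spleen, at 317 and 311 TPM over both groups, could not be ordered beyond the spread of their libraries.

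TXNRD1 (ENSSSCG00000000843, chr5:80172260-80236219, minus strand), the cytosolic thioredoxin reductase, was low and even across the organs, with means over both groups from 60.1 TPM in lung to 31.9 TPM in heart, and each organ overlapped with its neighbours in that order. Its mean was lower in BS in all 5 organs. The spleen separated the pig groups most, with 37.0, 46.7, 37.6 and 26.6 TPM in BS and 61.9, 67.3, 67.3 and 86.0 TPM in DSE, a log2 difference of -0.93 ± 0.19 (SE). In kidney they separated too, at 28.4, 34.7, 48.5 and 45.4 TPM in BS and 73.6, 60.9, 64.6 and 52.4 TPM in DSE. The genes most like it were YIPF6 (r = 0.90), SAR1A (r = 0.90), a GTPase of the vesicle coat that leaves the endoplasmic reticulum, and IARS1 (r = 0.90), the cytosolic isoleucyl-tRNA synthetase.

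DIO1 (ENSSSCG00000028896, chr6:158375602-158392754, minus strand), the type 1 deiodinase that activates thyroid hormone in liver and kidney, was measured at high levels in those organs only, among the 5 sampled. BS kidneys held 182, 208, 413 and 257 TPM, against 296, 348, 324 and 326 TPM in DSE kidneys, and livers held 212, 197, 251 and 249 TPM in BS, against 224, 228, 187 and 206 TPM in DSE. The pig groups overlapped in both organs. No library of heart, lung or spleen exceeded 0.292 TPM, and the liver mean was 1959 times that of the lung. The closest genes in pattern were HAO1, UPB1 and HNF4A, each with r = 0.998; HAO1 codes for a peroxisomal glycolate oxidase, UPB1 for an enzyme of pyrimidine breakdown and HNF4A for a transcription factor of liver and kidney epithelium. All libraries of heart, lung and spleen were near 0 for DIO1, so r rests on the contrast of kidney and liver with these organs.

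SELENOK and SELENOS sit in the membrane of the endoplasmic reticulum, where they take part in the removal of misfolded proteins, and SELENOF lies in its lumen and binds the folding sensor UGGT1. SELENOK (ENSSSCG00000060858, chr13:35990182-35996853, minus strand) was highest in the heart, with 659, 745, 780.4 and 619 TPM in BS and 946, 1169, 1094 and 1117 TPM in DSE. It was the member apart from CCDC152 with the most organs in which all DSE libraries exceeded all BS libraries: heart, kidney, lung and spleen, with the largest log2 difference in lung at -0.89 ± 0.07 (SE). Lungs held 354, 392, 399.8 and 417 TPM in BS and 699.9, 704, 792 and 700.2 TPM in DSE. Its annotated model is a single transcript of 342 nt without a 3′ untranslated region, so its level per length depends on a model that leaves out part of a usual mRNA.

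SELENOF (ENSSSCG00000030125, chr4:129258943-129287724, plus strand) varied less. Lung and kidney were highest, at means of 307 and 303 TPM over both groups, and the heart was lowest, at 89.6 TPM. Only the spleen separated the pig groups, with 157, 206, 192 and 194 TPM in BS and 234, 232, 233 and 258 TPM in DSE. SELENOS (ENSSSCG00000004826, chr1:139828791-139836914, minus strand) was the weakest of the 3 genes, between 27.3 TPM in heart and 81.6 TPM in lung over both groups, and BS and DSE libraries overlapped in every organ, with log2 differences from -0.19 in spleen to 0.22 in liver.

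SELENOW (ENSSSCG00000034313, chr6:53470693-53474653, plus strand), a small selenoprotein abundant in muscle, was highest in the heart, with 873, 662, 940.5 and 914 TPM in BS and 946, 818, 844 and 1006 TPM in DSE. Each heart library exceeded every library of another organ, and each lung library every one of kidney, spleen or liver. The heart mean was 6.91-fold higher than that of liver, the lowest organ. Liver was the only organ without overlap between the pig groups, with 67.3, 95.1, 102 and 95.2 TPM in BS and 155, 183, 143 and 173 TPM in DSE, a log2 difference of -0.87 ± 0.16 (SE).

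**Figure D2:**
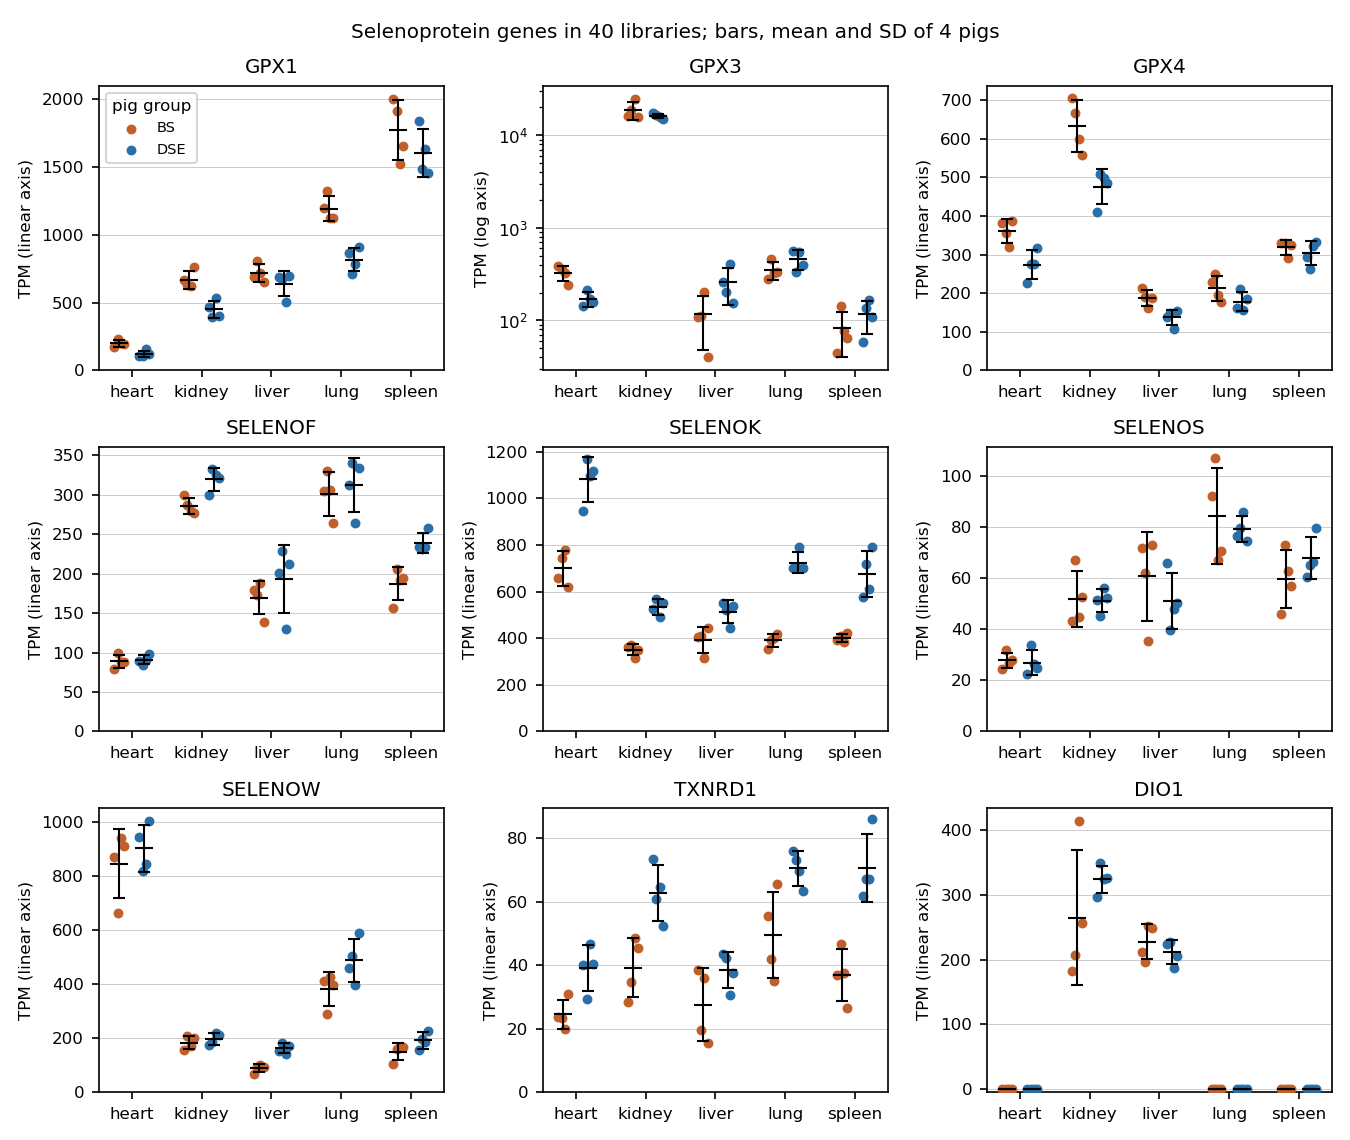
TPM of the 9 selenoprotein genes by tissue, BS pigs left of DSE pigs; points are single libraries, bars the mean and SD of 4 pigs, and axes are linear except the log axis of GPX3. GPX3 and GPX4 peak in kidney, GPX1 in spleen, SELENOK and SELENOW in heart, and DIO1 is near 0 outside kidney and liver.

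In 4 of the 10 genes, namely GPX1, GPX3, GPX4 and SELENOW, all 8 libraries of the highest organ exceeded all other libraries, and the same held for 23.0% of 16481 genes measured. Between organs the order depends on how libraries are scaled. When TPM values were divided by median-ratio size factors, which ranged from 0.526 to 1.85 and were lowest in liver and heart, the separated genes were 2 and not 4, and the highest organ changed for GPX4, SELENOF, SELENOS, TXNRD1 and DIO1. DIO1 then averaged 246 ± 58 in kidney and 377 ± 46 in liver (scaled TPM, SD, n = 8 each), and GPX4 averaged 470.5 ± 107.4 in kidney and 503 ± 97 in heart. GPX3 stayed highest in kidney, CCDC152 in liver, GPX1 in spleen, and SELENOK and SELENOW in heart under both scalings. For GPX1 the scaled means were close, at 1258 ± 217 in spleen and 1169 ± 180 in liver, a difference within the spread of the libraries.

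Across organs, 47 pairs of a gene and an organ passed the minimum mean of 1 TPM in either pig group; DIO1 passed it in kidney and liver and in no other organ. The groups did not overlap in 20 of the 47. In heart, 3 genes had all BS libraries above all DSE libraries and 2 had the reverse, where 23.1% and 12.3% of 12283 genes did so. In kidney these counts were 2 and 3, against 19.8% and 17.6% of 13820 genes, and in liver 1 and 2, against 19.2% and 11.5% of 12147 genes. In lung they were 1 and 2, against 14.2% and 25.7% of 15025 genes, and in spleen 0 and 4, against 12.0% and 17.0% of 13913 genes. Because the genes were chosen with these values known, nothing is read from the counts. GPX1 and GPX4 had the higher mean in BS in all 5 organs, while CCDC152, SELENOF, SELENOK, SELENOW and TXNRD1 had the lower mean in BS in all 5. For SELENOF the log2 difference was only -0.03 in heart and -0.05 in lung. The organs come from the same animals, and the share of all genes with 1 direction in every organ is not given here. Nothing is therefore read from this agreement. For SELENOF in lung the sign turned to 0.21 under median-ratio scaling. Leaving out 1 animal turned the sign for SELENOF in heart (BS1 or DSE4) and lung (BS4) and for SELENOW in heart (BS2), to at most 0.02. GPX3, SELENOS and DIO1 changed sign between organs.

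**Figure D3:**
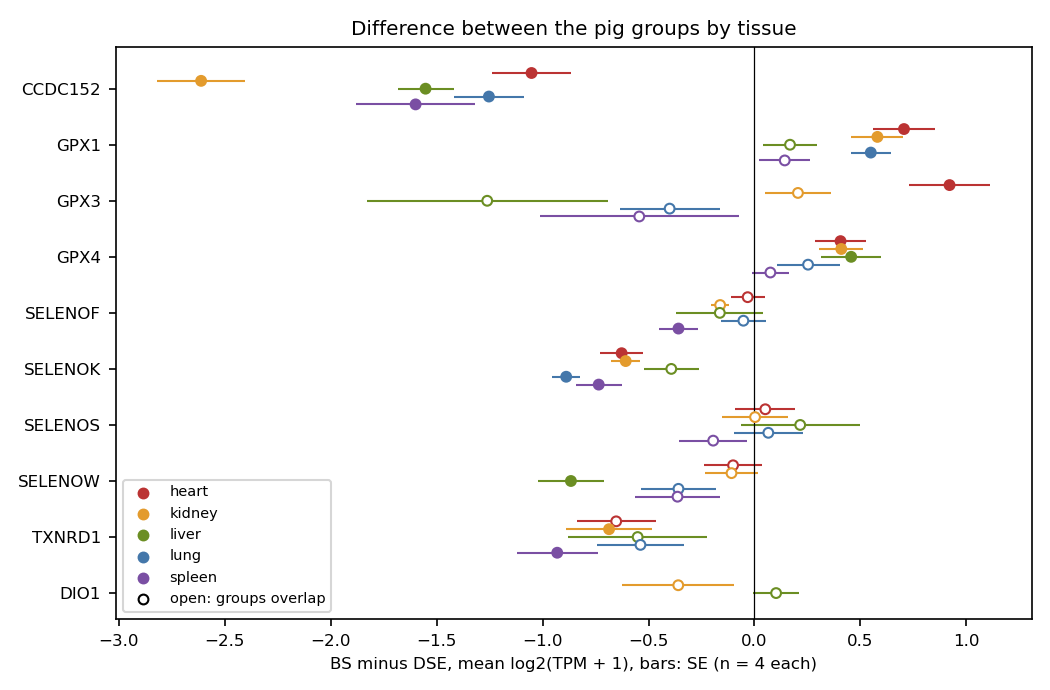
Difference of mean log2(TPM + 1), BS minus DSE, for each gene and tissue with its SE (n = 4 pigs each); open points mark groups whose libraries overlap. CCDC152 runs from -2.61 in kidney to -1.05 in heart, GPX1 and GPX4 lie right of 0, and SELENOK and TXNRD1 lie left of it.

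Differences between the pig groups also moved with transcript length across all genes. Genes of each organ were put into 4 length classes of equal size. In kidney the shortest class had a median log2 difference of 0.25 (BS minus DSE) and the longest -0.25. The same order held in the other organs, with 0.26 and -0.15 in heart, 0.07 and -0.47 in lung, 0.25 and -0.15 in liver and 0.09 and -0.27 in spleen. CCDC152, TXNRD1 and SELENOK belong to the shortest class, whose median was positive in each organ, and were lower in BS. The annotated transcripts of TXNRD1, like that of SELENOK, have no 3′ untranslated region, so the length class of both rests on incomplete models. GPX1 and GPX4 belong to it too and were higher in BS. The part of transcript length or RNA quality in these differences was not tested. Over all genes, the median difference was -0.21 in lung and -0.11 in spleen with TPM as deposited, and 0.03 and 0.01 after median-ratio scaling.

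Transcripts of the 10 genes numbered from 1 to 7 in the annotation, and 14 of them reached a share of at least 10% of their gene's TPM in some organ; 2 of them, both of DIO1, did so only in heart, lung or spleen, where DIO1 was at most 0.292 TPM. In each gene and each organ where it reached 1 TPM, the same transcript led. CCDC152 rested on ENSSSCT00000018371, with 8 exons, for 99.8% of its TPM in heart and for all of it in the other organs. GPX3 rested on a transcript assembled from long reads, PB.19479.1, for 97.6% ± 1.5 in lung and 99.7% ± 0.1 in kidney (SD, n = 8 each). The leading transcript of SELENOW, PB.8277.3, took 92.9% ± 1.3 in heart and 82.7% ± 2.8 in lung (SD, n = 8 each).

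SELENOF and TXNRD1 each split their level between a pair of transcripts, and the split was steady across organs. For SELENOF, PB.6407.2 took between 58.1% in heart and 62.3% in kidney and ENSSSCT00000028257 most of the rest. A single full-length read supports PB.6407.2 in the 10 long-read libraries. For TXNRD1, ENSSSCT00000074845 took between 72.7% in heart and 77.2% in lung, and ENSSSCT00000072574 between 27.2% and 22.8%. In heart ENSSSCT00000072574 took 25.0% ± 1.3 in BS and 29.4% ± 2.4 in DSE (SD, n = 4 each); these shares were not tested, and in the 4 other organs the group means differed by less than their SDs summed.

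The annotation gives no coding sequence to 12 of the 17 long-read transcripts of these genes, or 70.6%, whereas 3.59% of all 34778 long-read transcripts have none. Among them are PB.19479.1 of GPX3 and PB.8277.3 of SELENOW, and 99.8% of the 10385 full-length reads on annotated transcripts of GPX3 and SELENOW belong to transcripts without a coding sequence. The transcripts of the same genes that come from Ensembl carry one, of 660 nt for the longer GPX3 model and 273 nt for SELENOW.

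Long-read counts tested the organ pattern in libraries that had no part in the choice of the genes. Of the 10 genes, GPX3, GPX4, SELENOF, SELENOS and SELENOW had full-length reads and passed the filter on low counts. CCDC152, GPX1, SELENOK, TXNRD1 and DIO1 have no long-read transcript in the annotation. No read could therefore be assigned to them, and their long-read level is not known. Levels are given as CPM (reads scaled to a library of 1000000). The smallest library was BS spleen with 119623 reads and the largest BS kidney with 456783. The intervals below cover counting error only. GPX3 had 5484 reads in BS kidney and 4378 in DSE kidney, and between 3 and 57 reads in each library of the other organs. Its level in kidney was higher by 7.003 on the log2 scale than in lung, the next organ (edgeR quasi-likelihood test, adjusted p = 7.26e-32, with pig group as a term). BS heart held 163 reads of SELENOW and DSE heart 84, against 18 in BS lung and 47 in DSE lung, and the gene was higher in heart by 2.04 on the log2 scale (edgeR, adjusted p = 9.90e-05). Calling a gene organ-enriched needed at least a 4-fold difference from each other organ; these 2 of the 5 genes met it, where 14.7% of 4110 genes did. The call for SELENOW ended under 3 of 5 alternatives: without pig group in the fit (difference 1.82; edgeR, adjusted p = 0.24), and, because the difference came under 4-fold, with library totals (1.57) and with reads of annotated transcripts only (1.99).

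GPX4, SELENOF and SELENOS were not called in any organ, with log2 differences of the highest organ from the next of 0.15, 0.16 and 0.43 (edgeR). SELENOS had between 3 and 17 reads a library. SELENOF had its highest CPM in lung in both pig groups, at 97.7 (exact 95% interval 59.7 to 151) in BS and 239.6 (178 to 316) in DSE. Its lowest was in liver in BS, at 28.3 (12.2 to 55.7), and in heart in DSE, at 26.7 (9.82 to 58.2).

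Between the pig groups, long reads compared 5 BS with 5 DSE libraries over organs. SELENOF was lower in BS by a log2 difference of -1.13 (edgeR, adjusted p = 0.00991), and SELENOW by -0.98 (edgeR, adjusted p = 0.0269), where 19.5% of the 4110 genes tested were called. CPM of SELENOF were lower in BS in 4 of 5 organs, all but the heart, and the call held with DESeq2 (adjusted p = 0.0476), without the count filter (0.0220) and with library totals (0.0406); with reads of annotated transcripts only, SELENOF was not among the genes tested. The call for SELENOW ended with DESeq2 (adjusted p = 0.0883), without the count filter (0.0614) and with library totals (0.0915). GPX3, GPX4 and SELENOS did not pass, with log2 differences of -0.59, -0.45 and -0.34 and edgeR adjusted p of 0.25, 0.34 and 0.64. GPX4, whose short-read mean was the higher one in BS in each organ, thus had a negative value here. In kidney GPX3 also went the other way, at 12006 CPM in BS and 26038 CPM in DSE, 1 library each. Its short-read kidney means were 18928 TPM in BS and 16173 TPM in DSE, with libraries that overlapped. As each library stands for an unstated number of animals, these p-values measure the spread between libraries over organs.

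**Figure D4:**
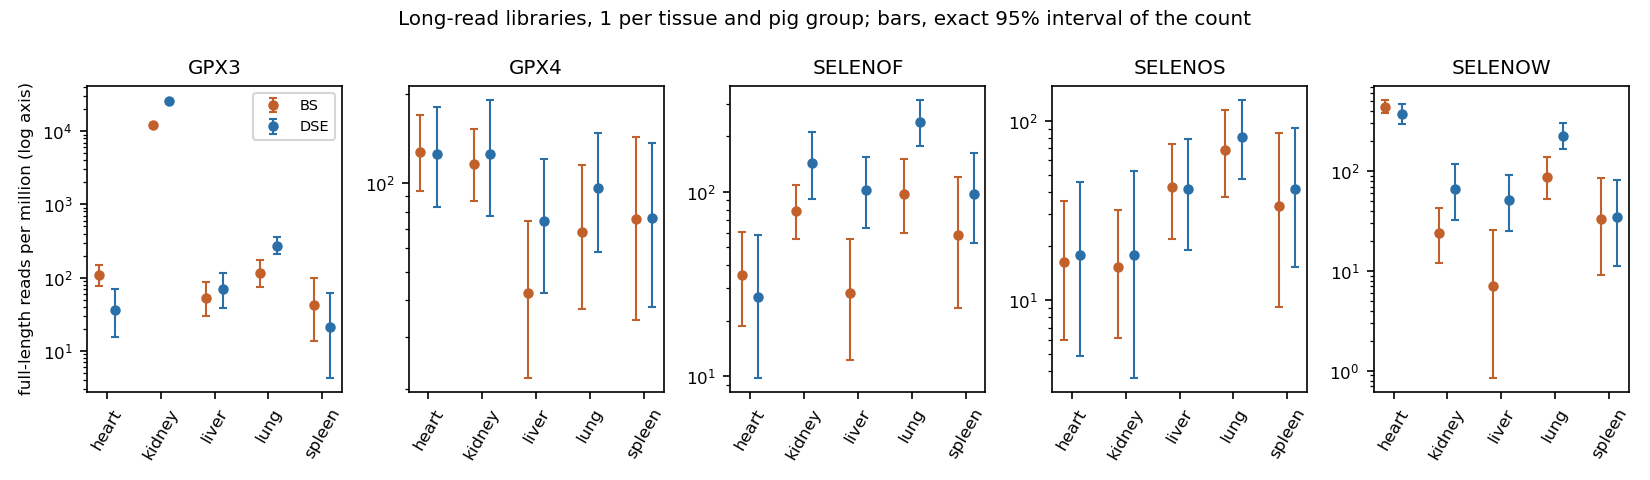
CPM of full-length reads on a log axis for the 5 genes with reads, 1 library for each tissue and pig group, BS left of DSE, with exact 95% intervals of the count. GPX3 stands at 12006 in BS kidney and 26038 in DSE kidney, and SELENOW is highest in both hearts.

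The other selenoprotein genes were tested with limma on log2(TPM + 1), adjusted over all genes measured. Of 16 listed, SELENOP and SEPHS2 were not matched by symbol, GPX6 and SELENOV stayed under 1 TPM in every organ, and 12 were tested. GPX2, the glutathione peroxidase of epithelia, was enriched in lung at 81.3 ± 115 TPM (SD, n = 8), a log2 difference of 5.49 from kidney, the next organ (limma, adjusted p = 9.64e-20). No other listed selenoprotein met the rule for organ enrichment or for being lowest, which 10.6% and 1.70% of 16481 genes met. Among the rest, SELENOT reached 110 ± 33 TPM in kidney, SELENOH 111 ± 12 TPM in spleen, SELENOM 65.9 ± 21.1 TPM in spleen, SELENOO 55.4 ± 22.2 TPM in kidney, SELENON 43.6 ± 13.3 TPM in lung, SELENOI 22.7 ± 4.9 TPM in liver, MSRB1 21.0 ± 7.0 TPM in kidney, TXNRD2 16.8 ± 2.9 TPM in kidney and TXNRD3 7.63 ± 1.29 TPM in lung as their highest organ (SD, n = 8 each). The deiodinases DIO2 and DIO3 peaked at 6.19 ± 6.23 TPM in heart and 1.06 ± 1.01 TPM in lung.

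BS and DSE pigs differed in several of these genes, in a background in which many genes differed: limma called 41.0% of genes in lung, 36.6% in heart, 33.6% in kidney, 27.2% in spleen and 26.9% in liver. Scaling moved the split among the tested genes of all these lists. In heart 10 were higher and 6 lower in BS as deposited, 8 and 8 under median-ratio scaling, and 5 and 10 without the mitochondrial genome. In lung 5 were higher and 11 lower as deposited, and 10 and 6 under median-ratio scaling; in spleen 4 and 11 as deposited, and 8 and 9 under median-ratio scaling. SELENOO, a mitochondrial selenoprotein that transfers AMP to proteins, was higher in BS in all 5 organs. Its means were 75.4 ± 8.2 TPM in BS kidneys and 35.5 ± 4.6 TPM in DSE kidneys (SD, n = 4 each), a log2 difference of 1.07 ± 0.13 (SE; limma, adjusted p = 0.00182). The difference was 1.02 in liver (limma, adjusted p = 0.00224), 0.94 in lung (0.00196), 0.91 in heart (4.29e-04) and 0.70 in spleen (0.00572), and all BS libraries exceeded all DSE libraries in each organ. SELENOT, a thioredoxin-like protein of the endoplasmic reticulum, went the other way in all 5. It averaged 82.6 ± 20.0 TPM in BS kidneys and 138 ± 9 TPM in DSE kidneys, a log2 difference of -0.76 ± 0.18 (limma, adjusted p = 0.0145), and was lower in BS by -0.46 in heart, -0.52 in liver, -0.74 in lung and -0.65 in spleen. These 10 calls held under each of the 13 alternative settings.

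MSRB1, which reduces oxidised methionine, was higher in BS heart (11.02 ± 1.54 TPM in BS and 5.17 ± 0.80 TPM in DSE; log2 difference 0.96; limma, adjusted p = 0.00107), kidney, liver and lung, and missed the threshold in spleen (adjusted p = 0.0501). SELENOM, a protein of the endoplasmic reticulum, had the largest difference in the list, in liver, at 43.4 ± 5.4 TPM in BS and 14.8 ± 3.8 TPM in DSE (log2 difference 1.51; limma, adjusted p = 0.00240), and was also called in heart, kidney and spleen. SELENON, a selenoprotein linked to muscle disease, was higher in BS heart, kidney and liver. SELENOI, an enzyme of ethanolamine phospholipid synthesis, was lower in BS heart, kidney and lung, most in lung at 11.3 ± 3.8 TPM in BS and 20.4 ± 2.5 TPM in DSE (log2 difference -0.85; limma, adjusted p = 0.0145). TXNRD2, the mitochondrial thioredoxin reductase, passed in lung only and TXNRD3 in liver only, both higher in BS; that these organs differ from the others was not tested. SELENOH, DIO2, DIO3 and GPX2 passed in no organ; in lung GPX2 averaged 35.8 ± 17.4 TPM in BS and 127 ± 158 TPM in DSE. Leaving out 1 animal ended the calls for MSRB1 in lung (BS1, DSE1 or DSE3), SELENON in liver (DSE2 or DSE4), and those of SELENOM in heart, kidney and spleen, SELENON in kidney, SELENOI in heart and kidney, TXNRD2 in lung and TXNRD3 in liver under 3 to 7 of the 8 animals left out. Median-ratio scaling also ended the calls for SELENOM in heart and kidney and SELENOI in heart, and leaving out the mitochondrial genome those for SELENOM in heart and kidney.

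**Figure D5:**
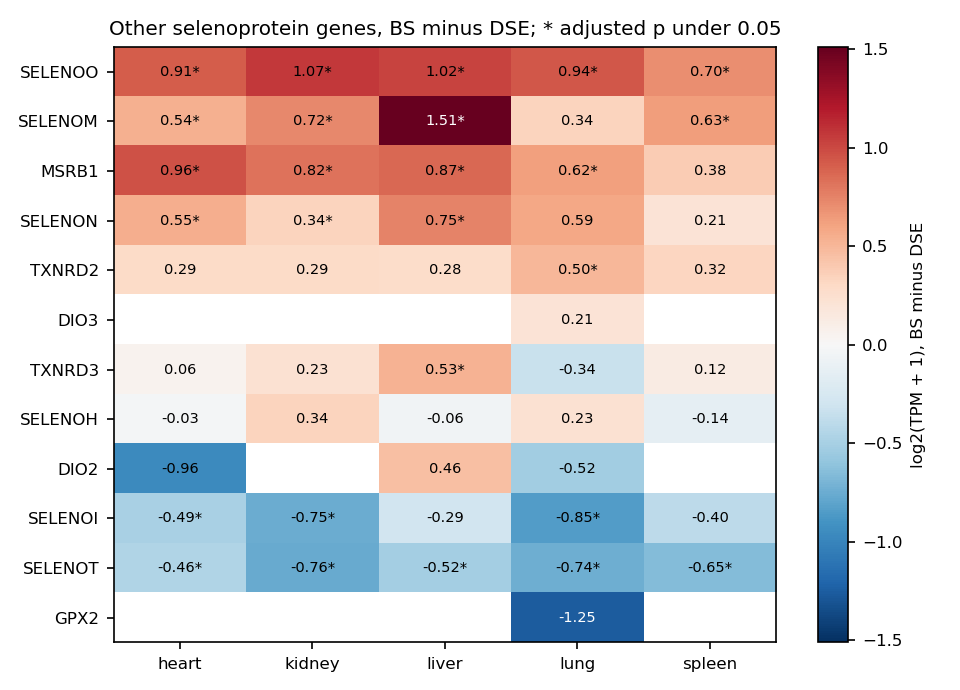
Difference of mean log2(TPM + 1), BS minus DSE, for each of the other selenoprotein genes tested in each tissue, with an asterisk where limma's adjusted p was under 0.05; blank cells did not pass the minimum level. SELENOO is positive in all 5 tissues and SELENOT negative in all 5.

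Counted by list, 5 of 10 selenoproteins tested were higher and 1 lower in BS liver, 4 and 2 of 9 in kidney, 4 and 2 of 10 in heart, 3 and 2 of 12 in lung and 2 and 1 of 9 in spleen, where limma called 17.5% of all genes higher and 9.36% lower in BS in liver, 19.2% and 14.5% in kidney, 23.3% and 13.3% in heart, 14.3% and 26.7% in lung and 10.8% and 16.5% in spleen. Their median log2 difference was 0.49 in liver, 0.34 in kidney, 0.17 in heart, 0.22 in lung and 0.21 in spleen, against 0.04, -0.02, 0.03, -0.21 and -0.11 over all genes of these organs. All these medians use TPM as deposited and take no account of transcript length. The part of scaling or length in them was not tested. This list leaves out the 10 genes described first. Those of the 10 that passed the minimum level had medians of -0.28 in liver, -0.14 in kidney, -0.03 in heart, -0.36 in lung and -0.36 in spleen, which were not tested.

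Factors that make selenocysteine and insert it numbered 10, all of them measured in some organ and none enriched in or lowest in an organ. SEPSECS, which forms selenocysteine on its tRNA, averaged 13.9 ± 6.3 TPM in BS kidneys and 29.3 ± 3.3 TPM in DSE kidneys (SD, n = 4 each; log2 difference -1.13; limma, adjusted p = 0.0201), and was lower in BS liver, lung and spleen as well. The kidney call ended without BS2, DSE1 or DSE2. EEFSEC, the elongation factor for selenocysteine, was higher in BS heart, kidney, liver and lung, while TRIT1, which modifies the tRNA, was lower in BS heart (log2 difference -0.68; limma, adjusted p = 0.0139), kidney, lung and spleen. SECISBP2L, a relative of the SECIS binding protein, was lower in BS liver and lung, with 55.8 ± 22.3 TPM in BS lung and 101 ± 11 TPM in DSE lung (log2 difference -0.91; limma, adjusted p = 0.0163). TRNAU1AP, which binds the selenocysteine tRNA, was higher in BS heart and liver, but not without the mitochondrial genome (log2 difference in heart 0.36 as deposited and 0.21 then). SEPHS1 was lower in BS lung, a call that ended under median-ratio scaling (-0.37 as deposited and -0.13 then), as did those of SEPSECS and TRIT1 in lung, and the EEFSEC calls in heart and liver ended without the mitochondrial genome. RPL30, a ribosomal protein that binds SECIS elements, was lower in BS liver. In all, 1 of 10 was higher and 4 lower in BS lung, 2 and 3 of 10 in liver, 1 and 2 of 10 in kidney, 2 and 1 of 9 in heart and 0 and 2 of 10 in spleen, to be read against the shares of all genes given above. The calls that held without each animal in turn were those of TRIT1 in heart and kidney, EEFSEC and SECISBP2L in lung, RPL30 in liver and TRNAU1AP in heart, though the TRNAU1AP call ended without the mitochondrial genome and with replicate number as a block.

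Among genes of selenium uptake and handling, LRP2, the endocytic receptor that takes up SELENOP in kidney, was enriched in kidney at 395 ± 152 TPM, against 3.46 ± 1.68 TPM in spleen, the next organ (SD, n = 8 each; log2 difference 6.45; limma, adjusted p = 7.31e-27). It averaged 278 ± 129 TPM in BS kidneys and 511 ± 33 TPM in DSE kidneys (log2 difference -0.99; limma, adjusted p = 0.0298), a call that ended without BS1, BS2, DSE1, DSE2, DSE3 or DSE4. In spleen, at 1.99 ± 0.84 TPM in BS and 4.94 ± 0.24 TPM in DSE, the call held without each animal (log2 difference -1.03; limma, adjusted p = 0.00982). CBS, which turns homocysteine towards cysteine, was enriched in liver at 94.8 ± 12.8 TPM (log2 difference 2.701 from kidney; limma, adjusted p = 8.97e-14). CTH, the next enzyme of that route, which can also release selenium from its amino acids, averaged 328 ± 32 TPM in BS livers and 611 ± 92 TPM in DSE livers (log2 difference -0.89; limma, adjusted p = 0.00450). SCLY, selenocysteine lyase, was higher in BS kidney and liver, and SELENBP1 was higher in BS heart (log2 difference 0.82; limma, adjusted p = 0.0119). INMT, a methyltransferase that can act on selenium compounds, was lower in BS kidney. Of 6 genes tested in heart 1 was higher, of 6 in kidney 1 was higher and 2 lower, of 5 in liver 1 was higher and 1 lower, and of 7 in spleen 1 was lower. Nothing is read from counts this small. In lung limma called 0 of 6, with 1 gene, CTH, at an unadjusted p under 0.05 (0.0239, limma). Apart from CTH in liver and LRP2 in spleen, the calls for SCLY in kidney and SELENBP1 in heart held without each animal.

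Among genes of thyroid hormone transport and action, CRYM, a cytosolic binder of thyroid hormone, was enriched in kidney at 45.8 ± 8.8 TPM (SD, n = 8; log2 difference 2.78 from lung; limma, adjusted p = 1.15e-15). TTR, the plasma carrier transthyretin, was enriched in liver at 7577 ± 1783 TPM (7.62 from kidney; limma, adjusted p = 6.86e-13). Between the pig groups THRA, a thyroid hormone receptor, was higher in BS heart (not under median-ratio scaling or without the mitochondrial genome) and kidney, THRB was lower in BS lung, and SLC16A10 was lower in BS spleen, at 20.0 ± 7.2 TPM in BS and 40.9 ± 8.6 TPM in DSE (log2 difference -1.03; limma, adjusted p = 0.0170). Of these calls, SLC16A10 in spleen and THRA in kidney held without each animal. In liver limma called 0 of 5, none of them at an unadjusted p under 0.05.

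Partners and relatives without selenocysteine included GSR, glutathione reductase, which was lowest in heart at 6.11 ± 1.01 TPM (log2 difference -2.32 from spleen; limma, adjusted p = 7.17e-17), and MSRB3, a methionine sulfoxide reductase, lowest in liver at 2.20 ± 0.78 TPM (-2.40 from kidney; adjusted p = 1.76e-14); neither call held after median-ratio scaling. UGGT1, the folding sensor that binds SELENOF, was lower in BS heart, kidney, lung and spleen, most in lung at 18.5 ± 4.2 TPM in BS and 32.5 ± 4.3 TPM in DSE (log2 difference -0.79; limma, adjusted p = 0.00885). SYVN1, a ubiquitin ligase of the pathway in which SELENOS and SELENOK act, was higher in BS in all 5 organs, with 37.2 ± 9.4 TPM in BS livers and 17.2 ± 2.3 TPM in DSE livers (log2 difference 1.04; limma, adjusted p = 0.00880). MSRB2 was lower in BS spleen (log2 difference -0.73; limma, adjusted p = 0.0260), a call that ended without BS1, BS4, DSE2, DSE3 or DSE4. TXN2, mitochondrial thioredoxin, was higher in BS heart, kidney and spleen, though in heart not without the mitochondrial genome (log2 difference 0.36 as deposited and 0.19 then) or without DSE4, and TXNIP, which binds and inhibits thioredoxin, was lower in BS in the same organs. DERL2, GPX8, GSR, UGGT2 and ZDHHC6 were lower in BS in 1 or 2 organs each; median-ratio scaling ended the lung calls of ZDHHC6 (-0.35 as deposited and -0.09 then) and GPX8 (-0.43 and -0.17) and the spleen calls of GSR and TXNIP. By organ, 2 of 15 were higher and 6 lower in BS spleen, 1 and 4 of 15 in lung, 2 and 3 of 15 in kidney, 2 and 3 of 15 in heart and 1 and 1 of 14 in liver; these read against the directional shares of all genes given above, to which the counts in lung and kidney are near. Calls that held without each animal were those of SYVN1 outside the spleen (lost there without DSE3), UGGT1 in kidney and lung, TXN2 in kidney and GSR in liver.

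In long reads, 19 of the listed genes outside the 10 were tested. TTR was enriched in liver (log2 difference 7.72 from kidney; edgeR, adjusted p = 6.41e-39) and so was SELENOI (2.21 from spleen; adjusted p = 5.59e-04), though SELENOI was not called with library totals or without the pig group term. Between the pig groups TXNIP was lower in BS (log2 difference -1.37; edgeR, adjusted p = 2.40e-05), where BS heart held 578 reads and DSE heart 1071, and so was TTR (-2.03; adjusted p = 6.12e-04). TTR had reads only in liver, 328 in BS and 673 in DSE, and in kidney, 1 and 8. Its difference therefore rests on 1 liver and 1 kidney library of each group. In short reads of liver TTR was not called between the pig groups. With DESeq2, TTR lost both calls (adjusted p = 0.81 for liver and 0.86 between pig groups); with reads of annotated transcripts only, TXNIP lost its call (edgeR, adjusted p = 0.064). SELENOT, lower in BS in short reads of each organ, had a long-read difference of 0.12 (edgeR, adjusted p = 0.78). Long-read signs were also opposite to the short-read calls for SYVN1 (-0.48, edgeR adjusted p = 0.31), TXN2 (-0.62, 0.19) and SELENOI (0.65, 0.19). The same held for SELENBP1 (-0.68, edgeR adjusted p = 0.10), GSR (0.056, 0.92) and SECISBP2L (0.025, 0.97). None of these genes passed between the pig groups in long reads.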

How the data were processed

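Organs of 8 male pigs (4 BS, 4 DSE) gave 40 short-read libraries, and 10 long-read libraries came from the same groups. Columns of a further code, 20 in each TPM table and 5 in the count table, were not analysed here. The authors deposited TPM values per gene and per transcript (each library sums to 1000000) and counts of full-length reads per long-read transcript, 119623 to 456783 per library. Per the submitters' processing notes, STAR 2.7.10a and Salmon 1.10.1 were used with build susScr11; the role of each tool, and short-read depth, are not given in the sources used here. The deposited annotation joins Ensembl and long-read models.

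The 10 genes and the gene lists were chosen with earlier results of these data known; the text names every member, every listed selenoprotein and every listed gene that was called, except 1 that is not reported here though counts include it. A gene entered a fit where its mean reached 1 TPM in 1 of the groups compared; genes were fitted with limma 3.58.1 on log2(TPM + 1); a fold change on this scale understates that of low genes. A gene was called at a Benjamini-Hochberg adjusted p under 0.05, and called organ-enriched or lowest if it also differed at least 4-fold from each other organ. Full-length counts were summed over the gene of the annotated long-read transcript (51.9% of reads). Reads of other transcripts went to the gene of their long-read locus, where its annotated transcripts name 1 gene (35.9%). Reads at loci of several genes (3.16%) or at loci without an annotated long-read transcript (9.10%) were left out. Whether the latter lie in annotated genes was not examined. The summed counts were tested with edgeR 4.0.16 (quasi-likelihood, TMM) with pig group and organ as terms, and with DESeq2 1.42.0 as an alternative. Each fit was tested on simulated data. P-values on TPM measure the spread between animals. The same animal gave all 5 organs, as the titles show; BS and DSE share replicate numbers, but the deviations of same-numbered libraries had correlations from -0.24 to 0.08, so the numbers do not pair the groups. Blocking by animal left the 8 organ calls as they were. Other pseudocounts, filters, scalings and left-out animals were tried. Python 3.11.15 with pandas 2.3.3 made the descriptions.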

Additional observations from a re-analysis of the deposited data

Results flagged for a closer look

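Of 94 groups of 4 libraries, 5, or 5.32%, held a library whose gap to the nearest other, relative to the range of the group, passed Dixon's critical value at the 95% level, which by its construction flags about 1 in 20 groups of like values by chance. These were GPX1 in DSE liver (animal DSE3, 507 TPM), GPX4 in BS spleen (BS3, 291 TPM), SELENOF in DSE spleen (DSE4, 258 TPM), SELENOK in DSE lung (DSE3, 792 TPM) and SELENOW in BS spleen (BS1, 104 TPM). They come from 4 animals and 3 organs. No gene had BS libraries wholly above DSE libraries in 1 organ and wholly below them in another.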

How the results depend on the processing

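The count of listed genes called organ-enriched was 6 and stayed between 6 and 7; that of listed genes called lowest was 2, and fell to 0 under median-ratio scaling and to 1 without the mitochondrial genome. The 80 calls between BS and DSE over 5 tissues became 53 without a filter on low values and 49 to 78 when 1 animal was left out (51 without DSE2, 49 without DSE3, 54 without DSE1 or DSE4); all 80 kept their sign, and 36 were called without each animal. Adding the replicate number as a block gave 57 calls. The 5 long-read organ calls became 3 with library totals and 3 without the pig group term, and the 5 long-read calls between BS and DSE became 2 with DESeq2 and 3 with reads of annotated transcripts only. The 20 member and organ pairs without overlap were 17 to 23 under all alternatives, and members with 1 separate organ, 4 as deposited, were 2 under median-ratio scaling. Among transcripts with a full-length read, 7 and not 14 reached a 10% share. The cause of these changes was not tested. Higher calls made up 34.9% of all calls in lung, 39.5% in spleen and 63.7% in heart as deposited, 56.4%, 56.5% and 54.4% under median-ratio scaling, and 38.8% in heart without the mitochondrial genome. Of 517 member values under alternatives, 12 took the other sign, all of SELENOF, SELENOS or SELENOW, and none of CCDC152. No full-length read could be assigned to CCDC152, GPX1, SELENOK, TXNRD1 or DIO1, which have no long-read transcript in the annotation.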
